A study of Mus musculus with 2 samples.

Results

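Endoderm-like cells of mouse embryoids, chosen by their own measured UMIs, were divided by how many transcripts of 5 mitosis genes they held, and the genes outside the cell cycle were compared between the ends of that division. A cell barcode of the embryoid library was kept with at least 3000 unique molecular identifiers (UMIs, each standing for 1 captured transcript), at least 500 detected genes and a mitochondrial share of 1% to 25%. It was called endoderm-like with at least 5 UMIs of Gata4, Sox17, Pdgfra and Col4a1 together, fewer than 5 of the epiblast genes Tdgf1, Sox2, Utf1 and Trh, fewer than 5 of Vim and fewer than 5 of the collagen genes Col1a1, Col1a2 and Col3a1. Of 4262 kept barcodes, among 5546 in the library and 6834 in the series, 3814 met that rule. Cells with at least 5 UMIs of Top2a, Ube2c, Prc1, Kif11 and Kif23 together, here the cycle sum, were called cycling and numbered 1790. Cells with a cycle sum of 0 numbered 1069, so that 2859 cells were compared, and 955 cells with a sum of 1 to 4 were set aside.

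The embryoids were aggregates of ES cells from Lifeact-RFPRuby mice and XTE cells, which had been reprogrammed from Gata6-H2B:Venus ES cells and were kept in medium with CHIR99021, BMP4, Fgf4, heparin and Activin. They were seeded at 10000 ES cells with 50000 to 80000 XTE cells, left 48 h in AggreWell plates to aggregate, and moved to repellent plates for a further 48 h. The second library was made from whole B6C3F1 embryos of embryonic day 4.5, and 6000 cells went into each library. Neither the number of embryoids or embryos nor the line behind a given cell is recorded in the labels, and there is 1 library of each kind. Cells of 1 library are not replicates, so no p-value is given, and intervals cover counting error only.

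Primitive endoderm is the layer of the late blastocyst that faces the cavity. It gives rise to visceral endoderm, which absorbs and secretes nutrients around the embryo, and to parietal endoderm, which lays down a thick basement membrane. Transcripts of Top2a, a topoisomerase that untangles chromosomes, of Ube2c, which hands ubiquitin to the anaphase-promoting complex, of Prc1, a microtubule bundler of the central spindle, and of the spindle motors Kif11 and Kif23 build up towards mitosis and are cleared afterwards. A cell without them may be in an earlier phase or outside the cycle. Their promoters are known to carry a cell cycle homology region, TTTGAA or TTTAAA, downstream of CCAAT boxes, through which the DREAM complex holds such genes silent in resting cells and MuvB with B-MYB and FOXM1 drives them later.

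Promoters of 3 of the mitosis genes are printed because those genes define the comparison. Each run covers the 250 bases before the RefSeq transcript start in build GRCm38.p6, on the gene's strand, with TTTGAA and CCAAT in capitals on either strand (TTCAAA and ATTGG are the reverse complements). They lie at chr11:99024190-99024439 (minus strand) for Top2a, chr2:164769679-164769928 (plus strand) for Ube2c and chr19:37376132-37376381 (plus strand) for Kif11.
Top2a: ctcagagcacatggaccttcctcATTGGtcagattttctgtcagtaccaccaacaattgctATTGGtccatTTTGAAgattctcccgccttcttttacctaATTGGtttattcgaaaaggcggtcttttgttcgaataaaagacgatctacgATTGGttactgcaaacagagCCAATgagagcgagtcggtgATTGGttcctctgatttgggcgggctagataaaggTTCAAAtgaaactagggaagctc
Ube2c: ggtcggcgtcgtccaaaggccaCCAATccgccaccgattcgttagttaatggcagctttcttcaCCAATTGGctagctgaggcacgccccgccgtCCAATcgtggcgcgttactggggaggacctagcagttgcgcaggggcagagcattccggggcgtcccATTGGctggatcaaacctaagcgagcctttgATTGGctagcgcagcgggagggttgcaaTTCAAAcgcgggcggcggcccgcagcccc
Kif11: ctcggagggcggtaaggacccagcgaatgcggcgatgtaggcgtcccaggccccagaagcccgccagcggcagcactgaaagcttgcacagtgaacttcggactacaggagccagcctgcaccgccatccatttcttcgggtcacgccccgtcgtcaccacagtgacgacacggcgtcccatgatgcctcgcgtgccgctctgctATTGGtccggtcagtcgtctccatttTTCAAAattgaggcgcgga
TTTGAA lay at 23 to 18 bases before the start in Top2a, 29 to 24 bases before it in Ube2c and 19 to 14 bases before it in Kif11, each time on the opposite strand. Top2a held another 179 to 174 bases before the start, on its own strand. Prc1 had it 30 to 25 bases before 1 of its 2 listed starts, and the window of the other start ends within the same match. Kif23 held no TTTGAA in this window. Of 32851 RefSeq promoters of the same length, 16.0% held TTTGAA, 12.1% held TTTAAA, 33.8% held CCAAT and 1.86% held the E2F-like motif TTCCCGCC on either strand. None of these 5 genes held TTTAAA or TTCCCGCC in this window.

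The cycling cells came to 46.9% of the endoderm-like cells (Clopper-Pearson 95% interval 45.3 to 48.5), the cells with a sum of 1 to 4 to 25.0% and those with a sum of 0 to 28.0%. Cycling cells were deeper, with a median of 6432 UMIs and 2899 genes against 4474 UMIs and 2263 genes in cells with a sum of 0. Over all 3814 cells the cycle sum and the total UMIs had a Spearman correlation of 0.45, and a division on UMIs therefore also divides on depth. With every cell thinned to 3000 UMIs and a call at 2 mitosis UMIs, 51.6% were cycling (50.0 to 53.2). Depth-matched ratios, in which cells with a sum of 0 were weighted to the depth of the cycling cells, are given below for the genes and lists named with them. The highest depth decile of the cycling cells held only 9 cells with a sum of 0, so these ratios lean on few deep cells there. The part of free RNA in the mitosis UMIs was not tested, and no doublet caller was run. Around the threshold the cells formed no gap: 116 cells had a sum of 4, with a median of 4987 UMIs, and 102 cells had a sum of 5, with a median of 5066.5 UMIs.

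**Figure D1:**
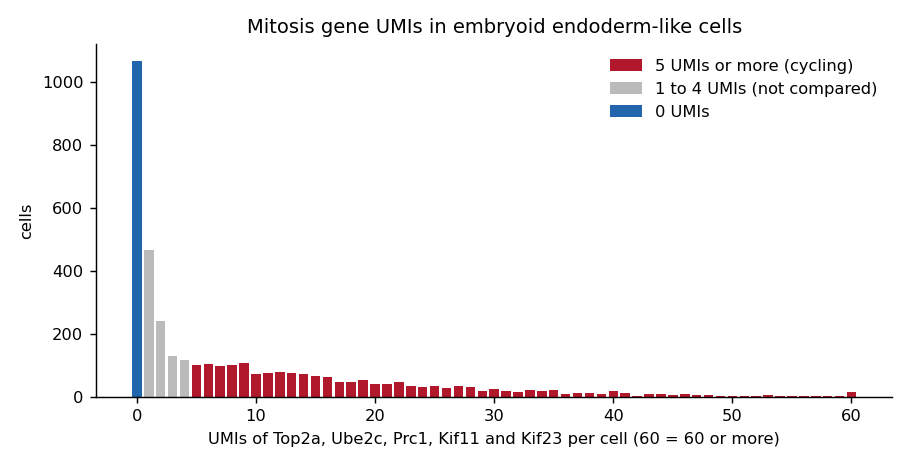
Endoderm-like cells of the embryoid library (y axis, number of cells) by their UMIs of the 5 mitosis genes (x axis, with 60 standing for 60 or more). The 1069 cells at 0 form the tallest bar, and the counts fall off without a gap through the call at 5 UMIs.

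Genes of the cell cycle that the rule did not use were far higher in the cycling cells. Levels are given as CPM, the UMIs of a gene summed over the cells of a group and scaled by the group's total to a fixed library size, the totals being 12947400 UMIs in cycling cells and 5297542 UMIs in cells with a sum of 0. Mki67, which coats mitotic chromosomes, had 258 CPM in cycling cells against 11.3 CPM in cells with a sum of 0. Ccnb1, the mitotic cyclin, had 403 CPM against 17.6 CPM, and its partner kinase Cdk1 had 481 CPM against 44.0 CPM. Over all 399 compared cell cycle genes outside the rule, 254 were at least 1.5-fold higher in the cycling cells (63.7%) and 2 at least 1.5-fold lower (0.501%); of these, the 205 compared genes of the G2/M list gave 165 higher and 0 lower. These ratios come from the cells that the mitosis genes chose and are a description.

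The cells with a sum of 0 were not empty of S phase transcripts. Mcm5, a subunit of the replicative helicase, had 172 CPM in cycling cells against 81.4 CPM in cells with a sum of 0, and Pcna, the polymerase clamp, had 115 CPM against 60.6 CPM. At least 5 UMIs of S phase genes were found in 99.9% of cycling cells and in 83.3% of cells with a sum of 0. The S phase list summed to 2364 CPM at a cycle sum of 0, 3267 CPM at 1 to 2, 4921 CPM at 3 to 4, 5749.9 CPM at 5 to 9, 5201 CPM at 10 to 19 and 3776 CPM at 20 or more. The highest sum thus stood in cells at the lower end of the mitosis range, not at its top. A cycle sum of 0 is therefore a statement about 5 transcripts, and the cells are called by that rule rather than as resting cells.

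The 4 endoderm genes of the rule chose the cells, so their levels are a description, and all were lower in the cycling cells. Gata4, a transcription factor of primitive endoderm, had 533 CPM in cycling cells against 583 CPM in cells with a sum of 0, and Sox17, another such factor, had 351 CPM against 421 CPM. The receptor Pdgfra had 282 CPM against 383 CPM, and the collagen IV chain Col4a1 had 3842 CPM against 5346 CPM (log2 ratio −0.48). Of endoderm genes that the rule did not use, Dab2, an endocytic adaptor of extraembryonic endoderm, had 1063 CPM in cycling cells against 1021 CPM (0.06, and −0.14 with depth matched), and the transcription factor Gata6 had 157 CPM against 183 CPM (−0.22). The 8 excluded epiblast and mesenchyme genes summed to 32.4 CPM in cycling cells against 31.0 CPM, which the rule set low. Of the lists the rule did not use, 8 matched blood genes summed to 2.32 CPM against 2.45 CPM and 10 neural or streak genes to 4.94 CPM against 3.59 CPM. The 18 trophectoderm genes summed to 297 CPM against 240.5 CPM, of which Id2, an inhibitor of bHLH factors, made up 183 CPM against 128 CPM. The part of such RNA in the ratios below was not tested.

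Outside the cell cycle, 6746 genes reached 20 CPM in at least 1 group. Of these, 172 were at least 1.5-fold higher in the cycling cells (2.55%) and 224 at least 1.5-fold lower (3.32%), after 1 CPM was added to both levels. A gene could pass this filter only through the group where it was high. With 20 CPM asked of the mean of both groups, 143 of 6480 genes were higher and 175 lower. The median gene differed by −0.04 on the log2 scale. Scaling to the median ratio gave 213 higher and 175 lower genes, and depth matching gave 207 higher and 188 lower, of which 144 and 101 were among those of the main comparison. Thinning gave 204 higher and 258 lower genes, and cells with 5000 to 10000 UMIs alone gave 222 and 243, with more lower than higher genes in both. Which direction held more genes thus depended on the scaling and on how depth was handled.

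**Figure D2:**
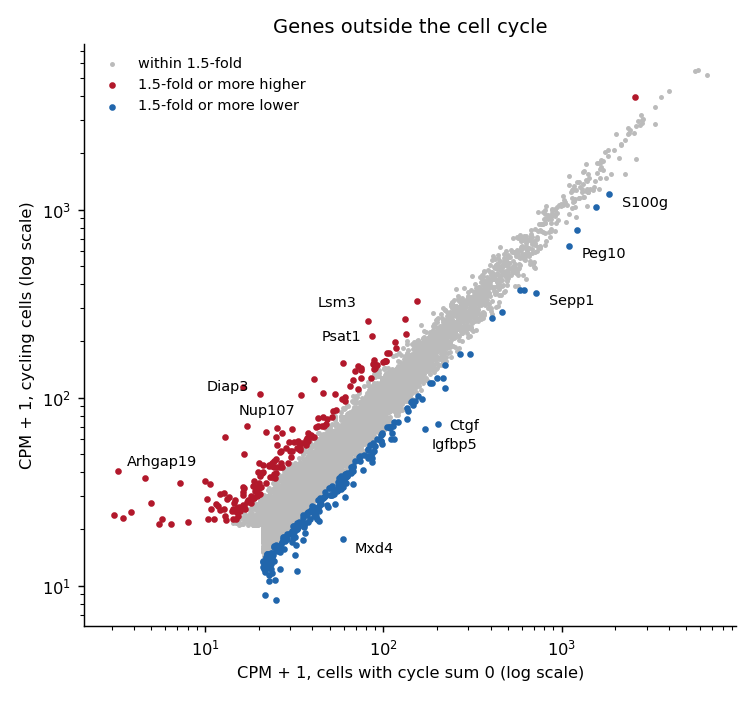
Level of each of the 6746 compared genes outside the cell cycle in cycling cells (y axis, CPM + 1, log scale) and in cells with a cycle sum of 0 (x axis, CPM + 1, log scale). Red points, 172 genes, are at least 1.5-fold higher in cycling cells, and blue points, 224 genes, at least 1.5-fold lower.

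Many of the most raised genes act in division although the list of cell cycle genes did not hold them. Arhgap19, a GTPase-activating protein that acts on RhoA in dividing cells, had 39.7 CPM in cycling cells against 2.27 CPM in cells with a sum of 0, a log2 ratio of 3.64 (95% counting interval 3.31 to 5.09; intervals are of the ratio of counts without the added CPM). Diap3, an actin-nucleating formin, had 103 CPM against 19.4 CPM (2.35; 2.12 to 2.71). Bard1, the partner of BRCA1 in DNA repair, had 22.9 CPM against 2.08 CPM, and the histone chaperone Asf1b had 21.8 CPM against 2.45 CPM. The others among the 12 highest were 2700099C18Rik, C330027C09Rik, Prr11, Gsg2, Tbc1d31, Spdl1, Ndc1 and Lsm3. In the blastocyst library the 12 genes were also all higher in its cycling cells than in its cells with a sum of 0 to 4, by 0.34 to 2.84 on the log2 scale. The counting intervals of 4 of the 12 (2700099C18Rik, Bard1, Spdl1 and Tbc1d31) span 0 there.

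After 36 further genes of division, DNA repair and the nuclear envelope were moved to the cell cycle list, a choice made after their values were seen, 137 of 6711 genes were higher (2.04%) and 224 lower (3.34%). Ndc1 and Lsm3 then led. Ndc1, a membrane protein that anchors the nuclear pore, had 69.2 CPM in cycling cells against 16.2 CPM in cells with a sum of 0 (log2 2.03; 1.77 to 2.43). Lsm3, a subunit of the ring that binds U6 small nuclear RNA, had 253 CPM against 80.6 CPM (1.64). Both were higher in the blastocyst cycling cells as well, Ndc1 with 95.3 CPM against 57.8 CPM and Lsm3 with 362 CPM against 257 CPM in cells with a sum of 0 to 4. The promoter of Ndc1, at chr4:107367797-107368046 (plus strand), held TTTGAA 24 to 19 bases before its start, in capitals here. That match is on the gene's own strand, whereas the ones nearest the start in the 3 mitosis genes above are on the opposite strand, and the window held no CCAAT.
Ndc1: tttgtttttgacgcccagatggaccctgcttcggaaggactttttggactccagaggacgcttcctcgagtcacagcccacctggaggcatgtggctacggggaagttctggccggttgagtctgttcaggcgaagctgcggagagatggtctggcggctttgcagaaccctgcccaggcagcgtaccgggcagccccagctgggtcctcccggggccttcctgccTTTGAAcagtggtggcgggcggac

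Part of the nuclear pore genes were higher in the cycling cells. Of 27 compared nucleoporin genes, a list put together after their values were seen, 9 were at least 1.5-fold higher in the cycling cells and 0 lower, beside 2.55% and 3.32% of all genes, with a median log2 ratio of 0.33 (0.35 with depth matched). Nup107, of the Y-shaped scaffold complex, had 102 CPM in cycling cells against 33.4 CPM in cells with a sum of 0. Its partners Nup85, with 151 CPM against 58.3 CPM, and Nup133, with 105 CPM against 44.9 CPM, were higher by a like size. Other compared subunits of that complex differed less, with log2 ratios of 0.95 for Nup43, 0.63 for Nup160, 0.33 for Seh1l and 0.06 for Sec13. The large nuclear basket protein Tpr had 403 CPM against 440.4 CPM, and Ranbp2, of the cytoplasmic filaments, had 69.7 CPM against 76.1 CPM, so the pore's parts did not differ to the same extent. In the blastocyst the list's median was 0.35 in the comparison with a sum of 0 to 4, where the embryoid median was 0.26.

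Genes of amino acid and one-carbon supply stood higher in the embryoid cycling cells. The amino acid stress list holds targets of the transcription factor ATF4, which cells switch on when amino acids run short or when growth signals call for more. Of its 15 compared genes, 8 were at least 1.5-fold higher in cycling cells and 0 at least 1.5-fold lower, beside the 2.55% of all genes higher, with a median log2 ratio of 0.64. With depth matched, 6 of the 15 were past 1.5-fold and the median was 0.49. Its members were not all raised: Atf4 itself, Atf3, Sesn2, Phgdh, Slc3a2, Slc7a1 and Ddit3 were within 1.5-fold. The list was chosen with earlier results of these data known.

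Psat1, the aminotransferase of serine synthesis, had 213 CPM in cycling cells against 85.7 CPM in cells with a sum of 0 (log2 1.30; 1.17 to 1.46). Shmt2, which passes a carbon unit from serine to folate in mitochondria, had 138 CPM against 68.1 CPM (1.01; 0.85 to 1.18), and Mthfd2, the next enzyme in that path, had 147 CPM against 71.0 CPM (1.04; 0.89 to 1.21). Slc7a5, the transporter of large neutral amino acids, had 104 CPM against 52.7 CPM. The log2 ratios of these 4 genes lay between 0.97 and 1.30.

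Chac1, which breaks down glutathione, had 29.6 CPM in cycling cells against 11.1 CPM in cells with a sum of 0. Asns, asparagine synthetase, had 183 CPM against 117 CPM (0.64; 0.51 to 0.77), a smaller difference, and 0.46 with depth matched. Pck2, with 60.2 CPM against 36.4 CPM, and Atf5, with 52.6 CPM against 33.2 CPM (0.55 with depth matched), completed the 8. Atf4 mRNA had 270.4 CPM against 254 CPM (0.09; 0.00 to 0.18), and Ddit3, a stress factor of the same pathway, was on the other side with 14.7 CPM against 21.9 CPM. The ATF4 factor is regulated mainly at translation, which these counts do not measure.

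The amino acid list had a median above 0 in each subgroup of the endoderm-like cells. Cells were put into 5 overlapping subgroups by at least 3 UMIs of a marker sum after thinning, 978 cells falling into more than 1. The median of the amino acid list was 0.36 in cells with Spink3 and Cubn, 0.84 with Rbp4, Nepn and Tff3, 0.77 with Frzb, Sfrp5 and Fst, 0.74 with Ctgf, F3 and Lamb3, and 0.72 with Dab1, Pitx1 and Emilin3. In the Spink3 and Cubn subgroup Psat1 had 225 CPM in cycling cells against 134 CPM in cells with a sum of 0, the smallest ratio of the 5 (0.74). In the Frzb, Sfrp5 and Fst subgroup it had 156 CPM against 42.6 CPM, the largest (1.85). Psat1 was thus higher in the cycling cells of each of these 5 subgroups.

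By cycle sum, Psat1 had 85.7 CPM at 0, 106 CPM at 1 to 2, 163 CPM at 3 to 4, 185 CPM at 5 to 9, 210 CPM at 10 to 19 and 231 CPM at 20 or more. Mthfd2 had 71.0, 71.4, 120, 152, 151 and 141 CPM in the same bins. Psat1 was higher in each further bin, and Mthfd2 levelled off once mitosis genes were present at 5 UMIs. Depth was higher in the bins with more mitosis UMIs, as given above for the groups.

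In the blastocyst library the same rule found 218 endoderm-like cells, of which 137 were cycling and 23 had a cycle sum of 0. The amino acid list lay near even or below there: its median log2 ratio was −0.17 against cells with a sum of 0 and 0.04 against the 81 cells with a sum of 0 to 4, where the embryoid median was 0.47. Psat1 had 368 CPM in cycling cells against 331 CPM in cells with a sum of 0 to 4 (0.15; −0.08 to 0.39). Shmt2 had 239 CPM in both groups. Asns had 446 CPM in cycling cells against 520 CPM (−0.22; −0.42 to −0.02), the opposite side from the embryoid. The embryoid cycling cells did not reach the blastocyst levels for Psat1, Shmt2, Asns or Slc7a5. Mthfd2 went the other way, with 147 CPM in embryoid cycling cells against 126 CPM in blastocyst cycling cells. With 1 library of each kind the model and the library cannot be told apart.

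**Figure D3:**
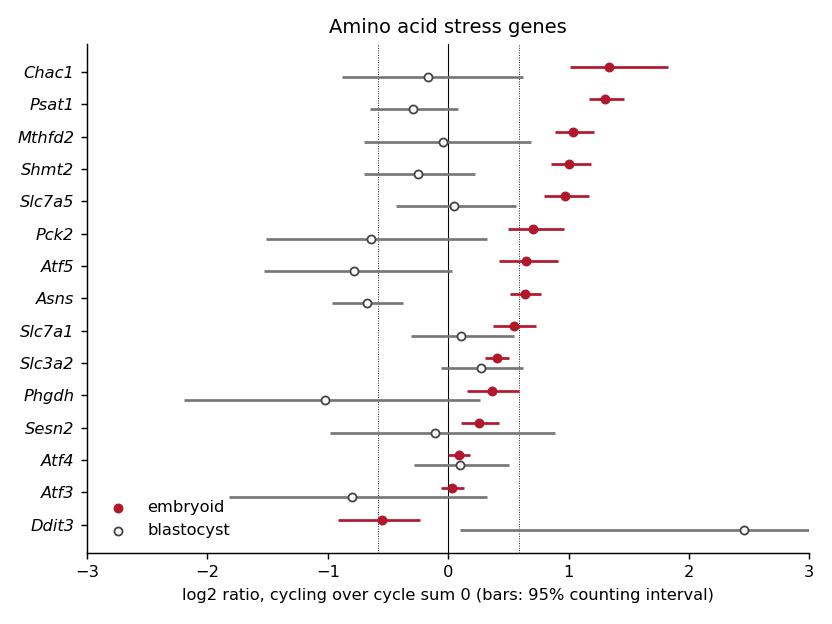
Log2 ratio of cycling cells over cells with a cycle sum of 0 (x axis) for the 15 compared amino acid stress genes, with 95% counting intervals, in the embryoid (red) and the blastocyst (open points). The 8 upper genes lie past the dotted line at 1.5-fold in the embryoid, while the blastocyst intervals, from 23 cells with a sum of 0, are wide and mostly span 0.

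Chac1 and Asns carry the motif of an ATF4 composite element, TGATGNAA, in the 250 bases before their RefSeq start (GRCm38.p6), and are printed for that reason with the match in capitals. The motif was searched on both strands after the values were seen, and 3.45% of the 32851 promoters held it. Chac1 lies at chr2:119350992-119351241 (plus strand), with the match on the opposite strand 193 to 186 bases before the start, and Asns at chr6:7693210-7693459 (minus strand), with the match 23 to 16 bases before it.
Chac1: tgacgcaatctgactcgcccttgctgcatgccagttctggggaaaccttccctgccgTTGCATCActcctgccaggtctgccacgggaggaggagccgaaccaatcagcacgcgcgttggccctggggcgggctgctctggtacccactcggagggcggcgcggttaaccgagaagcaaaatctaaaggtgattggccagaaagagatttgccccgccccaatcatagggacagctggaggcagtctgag
Asns: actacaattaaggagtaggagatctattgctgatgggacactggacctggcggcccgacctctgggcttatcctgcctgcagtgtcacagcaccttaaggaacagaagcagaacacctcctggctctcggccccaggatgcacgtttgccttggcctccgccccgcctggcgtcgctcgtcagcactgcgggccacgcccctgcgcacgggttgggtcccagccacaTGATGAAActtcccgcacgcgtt
Psat1, Shmt2, Mthfd2 and Phgdh had no match in this window.

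Lists of growth and RNA handling differed little. Of 29 compared splicing genes, 28 were above 0 and none past 1.5-fold, with a median log2 ratio of 0.26 (0.30 with depth matched). The core snRNP proteins led it, Snrpd1 with 281 CPM in cycling cells against 189 CPM in cells with a sum of 0 (0.57; 0.47 to 0.67) and Snrpe with 635 CPM against 449 CPM. Ribosome biogenesis genes had a median of 0.20, with 27 of 29 above 0, and nuclear-encoded genes of oxidative phosphorylation a median of 0.15, with 26 of 28 above 0. Cytosolic ribosomal proteins, taken as all symbols of Rpl or Rps followed by a number, had a median of 0.11. Of these, 100 of 107 were above 0, beside 43.5% of all genes above 0. The files held 281 such symbols, without the Rps6k kinases, so pseudogene entries may be among the 107. With depth matched these medians were 0.12 for ribosome biogenesis, 0.03 for oxidative phosphorylation, with 17 of 28 above 0, and 0.05 for ribosomal proteins. Ribosomal protein and snRNP genes have near-identical pseudogenes, among which reads could be split.

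The most abundant gene past 1.5-fold was Mt2, a metallothionein, singled out after its value was seen. It had 3970.3 CPM in cycling cells against 2589 CPM in cells with a sum of 0 (0.62; 0.59 to 0.64). In the blastocyst it stood on the other side, with 1083 CPM in cycling cells against 1313 CPM in cells with a sum of 0 to 4. Depth matching lowered the embryoid ratio to 0.43.

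**Figure D4:**
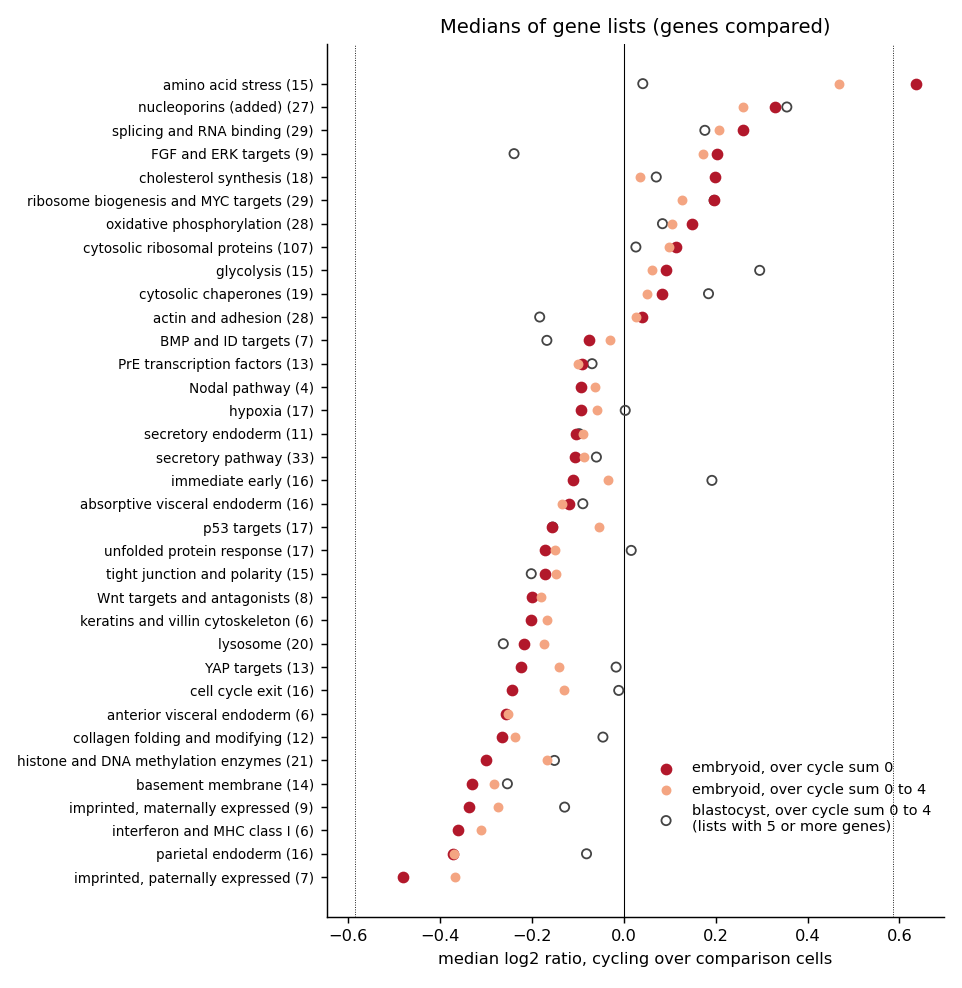
Median log2 ratio (x axis) of each gene list, with the number of compared genes in parentheses, for embryoid cycling cells over cells with a cycle sum of 0 (dark red) and of 0 to 4 (light red), and for blastocyst cycling cells over cells with a sum of 0 to 4 (open). Dotted lines mark 1.5-fold; the amino acid list lies past it at 0.64 and has a blastocyst median of 0.04.

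Genes lower in the cycling cells were led by Mxd4, a MAX-binding repressor that opposes MYC and marks withdrawal from division. It had 16.8 CPM in cycling cells against 58.7 CPM in cells with a sum of 0 (−1.75; −2.07 to −1.55). By cycle sum it had 58.7 CPM at 0, 60.2 CPM at 1 to 2, 27.5 CPM at 3 to 4, 21.9 CPM at 5 to 9, 16.4 CPM at 10 to 19 and 14.1 CPM at 20 or more, with the widest step between the second and the third bin. In the blastocyst it had 10.5 CPM in cycling cells against 30.5 CPM in cells with a sum of 0 to 4 (−1.45; −2.62 to −0.48). Its log2 ratio lay between −1.91 and −0.84 in the 5 subgroups.

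Of 16 compared cell cycle exit genes, 2 were at least 1.5-fold lower in the cycling cells, Mxd4 and Gadd45g, a growth arrest gene with 18.4 CPM against 30.4 CPM, and 1 was higher, beside 3.32% and 2.55% of all genes. Of the 16, 2 were above 0, with a median of −0.24 (−0.13 with depth matched). The higher one was Cdkn1b, which encodes the inhibitor p27, with 126 CPM in cycling cells against 74.0 CPM in cells with a sum of 0 (0.76; 0.60 to 0.93). Cdkn1a, which encodes the inhibitor p21, had 446 CPM against 499 CPM, and none of 17 compared p53 targets passed 1.5-fold. With depth matched, 1 of the 17 was at least 1.5-fold lower.

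Ctgf, a secreted matricellular protein and target of YAP and TEAD, had 71.1 CPM in cycling cells against 201 CPM in cells with a sum of 0 (−1.49; −1.63 to −1.37). By cycle sum it had 144 CPM at 1 to 2, 146 CPM at 3 to 4, 104 CPM at 5 to 9, 70.2 CPM at 10 to 19 and 52.8 CPM at 20 or more, close in the first pair of these bins and lower in each later one. Within the subgroups its log2 ratio lay between −0.61 and −1.43. In the blastocyst it was on the other side, with 107 UMIs in cycling cells against 28 UMIs in cells with a sum of 0 to 4 (log2 ratio of CPM 0.73; 0.13 to 1.39). Other YAP targets were closer to even: Cyr61 had 627 CPM in cycling cells against 753 CPM, and 2 of 13 compared genes, Ctgf and F3, were at least 1.5-fold lower, beside 3.32% of all genes, with a median of −0.22 (−0.14 with depth matched).

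**Figure D5:**
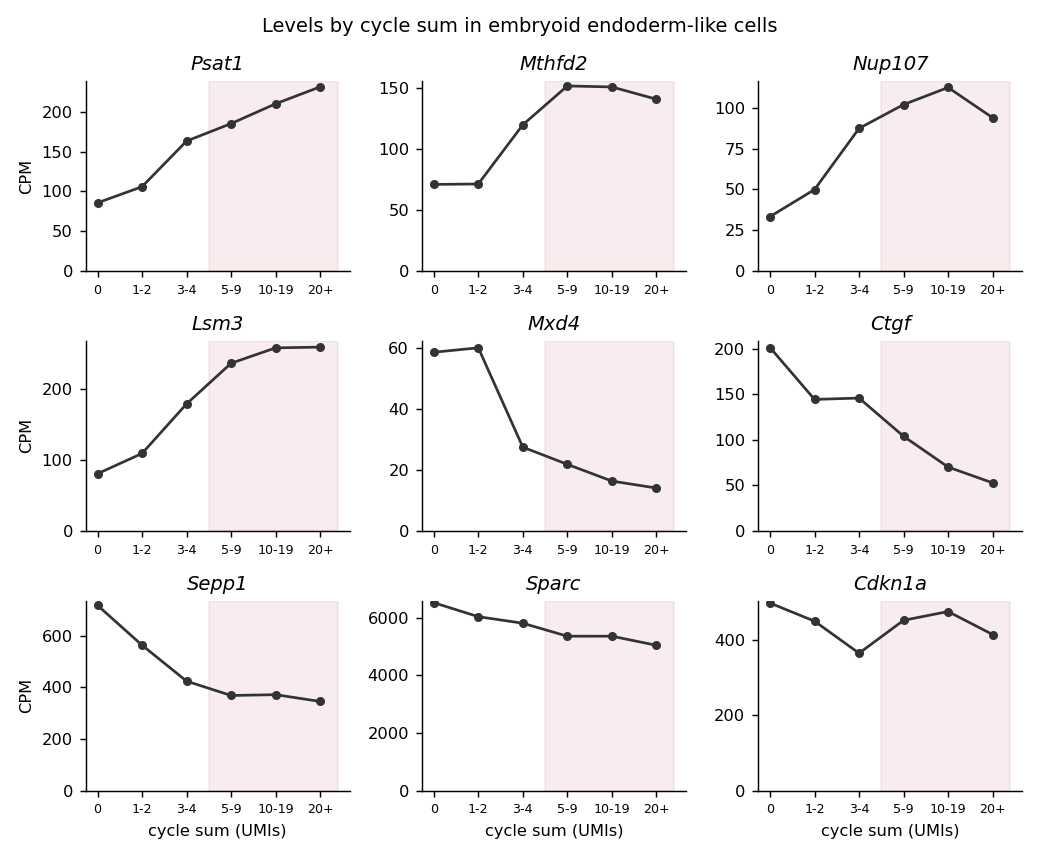
Level of 9 genes (y axes, CPM, from 0) in embryoid endoderm-like cells binned by cycle sum (x axes, UMIs), with the cycling bins shaded. Psat1 climbs from 85.7 to 231 CPM, Mxd4 drops from 58.7 to 14.1 CPM, and Cdkn1a stays between 365 and 499 CPM.

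Of 16 compared parietal endoderm genes, 5 were at least 1.5-fold lower in the cycling cells (Ctgf, Procr, F3, Fstl1 and Snai1) and 0 higher, beside 3.32% and 2.55% of all genes, with a median of −0.37. With depth matched, 2 of them, Ctgf and Procr, stayed past 1.5-fold, and the median was −0.21. F3, the tissue factor that starts clotting, had 374 CPM in cycling cells against 616 CPM in cells with a sum of 0 (−0.72, and −0.56 with depth matched). Procr, the endothelial protein C receptor, had a log2 ratio of −0.80 (−1.14 to −0.53). Sparc, a collagen-binding protein secreted in quantity by parietal endoderm, had 5227 CPM against 6518 CPM (−0.32; −0.34 to −0.30). In the blastocyst the list's median was −0.08 against cells with a sum of 0 to 4, and −0.37 in the same comparison in the embryoid.

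All 14 compared basement membrane genes lay below 0, none past 1.5-fold, where 43.5% of all genes lay above 0. Their median was −0.33 (−0.19 with depth matched, where 3 of the 14 were above 0). Col4a2, a chain of collagen IV, had 1547 CPM in cycling cells against 2256 CPM in cells with a sum of 0 (−0.54; −0.58 to −0.51), and the laminin chain Lamc1 had 1049.7 CPM against 1387 CPM. Depth matching moved some members, since Lamc1 came to −0.07 and Lamb1 to 0.01 with depth matched, while Sparc stayed at −0.32. All 20 lysosome genes also lay below 0, with a median of −0.22. The protease Ctsd led them, with 278 CPM in cycling cells against 408 CPM. In the blastocyst the medians were −0.25 for basement membrane and −0.26 for lysosome genes against cells with a sum of 0 to 4.

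Taken over all subgroups together, visceral endoderm genes leaned lower in the cycling cells, and few stood above 0 once depth was matched. In the absorptive list 6 of 16 genes lay above 0 (median −0.12), beside 43.5% of all genes, against 1 gene after depth matching (median −0.26). The Frzb, Sfrp5 and Fst subgroup was on the other side for this list (median 0.18). There 6 absorptive genes were at least 1.5-fold higher and 1 lower, beside 409 and 436 of 6859 genes. Of the secretory list, 2 were higher and 0 lower there (median −0.02). Of 16 compared absorptive genes, 4 were at least 1.5-fold lower in the cycling cells, beside 3.32% of all genes: Aqp8, a water channel, with 111 CPM against 222 CPM in cells with a sum of 0, Apob, the lipoprotein scaffold, with 29.3 CPM against 49.8 CPM, Cyp26a1, which degrades retinoic acid, with 374 CPM against 584 CPM, and S100g, a calcium-binding protein, with 1205 CPM against 1848 CPM. The endocytic receptor subunit Amn was on the other side with 171 CPM against 121 CPM (0.50), and Spink3, a protease inhibitor, with 1049.8 CPM against 817 CPM (0.36). With depth matched, Amn came to −0.11 and Spink3 to 0.03, whereas S100g stayed lower at −0.77. Of 11 secretory endoderm genes, 2 passed 1.5-fold, Nepn and Tff3, both lower, Tff3 by less than 1.5-fold with depth matched (−0.40). Only 2 secretory genes lay above 0 (median −0.10), and none did after depth matching (median −0.28).

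Sepp1, the plasma carrier of selenium, had 360.1 CPM in cycling cells against 717 CPM in cells with a sum of 0 (−0.99; −1.06 to −0.93), with ratios between −0.98 and −0.80 in the 5 subgroups. Igfbp5, which binds insulin-like growth factors, had 66.8 CPM against 169.9 CPM (−1.33; −1.48 to −1.21). Its levels by cycle sum were not in one direction, with 40.6 CPM at 3 to 4 and 84.4 CPM at 20 or more. The growth factor Igf1 had 13.6 CPM against 30.8 CPM. The other genes among the 12 lowest were Abca1, a cholesterol exporter, the muscle actin Acta1, the actin-binding Nexn, the meiotic cohesin Rec8, Plekhg1 and Zfp579.

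Paternally expressed imprinted genes had a median of −0.48 over 7 genes, with 3 at least 1.5-fold lower, beside 3.32% of all genes. With depth matched the median was −0.29 and none of the 7 was past 1.5-fold. Peg10, a retrotransposon-derived gene needed in the placenta, had 642 CPM in cycling cells against 1100.3 CPM in cells with a sum of 0 (−0.78; −0.82 to −0.73). The growth factor Igf2 had 1860.1 CPM against 2596 CPM, and with depth matched its ratio was −0.15 and that of Peg10 −0.46. Maternally expressed genes had a median of −0.34 (−0.12 with depth matched) with none of 9 past 1.5-fold, and H19, the noncoding RNA beside Igf2, was on the other side with 729 CPM against 581 CPM (0.33; 0.27 to 0.39). In the blastocyst Peg10 had 1 UMI in cycling cells and 1 UMI in cells with a sum of 0 to 4.

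Of 21 compared enzymes of histone and DNA methylation, 2 were at least 1.5-fold lower in the cycling cells, the methylcytosine oxidases Tet2, with 11.2 CPM against 20.4 CPM, and Tet3, with 68.5 CPM against 108 CPM in cells with a sum of 0. The list's median was −0.30, and −0.16 with depth matched, where Tet2 came to −0.56 and Tet3 to −0.46. Dnmt3b, a de novo DNA methyltransferase, was the 1 gene at least 1.5-fold higher, with 77.2 CPM against 42.3 CPM (0.85; 0.66 to 1.08), which came to 0.16 with depth matched. The shares of all genes were 3.32% lower and 2.55% higher.

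Cycling was found in every subgroup of the endoderm-like cells, in unequal shares. After thinning, 55.3% of the cells with Spink3 and Cubn were cycling (52.5 to 58.1), against 44.4% of those with Ctgf, F3 and Lamb3 (40.8 to 48.1), the highest and lowest of the 5, and unthinned 50.8% against 38.7%. The subgroups overlap, and genes that define some of them themselves differed between the groups. Ctgf, F3, Nepn and Tff3 were at least 1.5-fold lower in the cycling cells. By less than 1.5-fold, Spink3 was higher there, and Frzb and Fst were lower. The share in the blastocyst by the same rule was 62.8% (56.1 to 69.3), and 61.9% thinned, against 46.9% and 51.6% in the embryoid.

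In the blastocyst, 355 of 6616 genes outside the cell cycle were at least 1.5-fold higher in cycling cells than in cells with a sum of 0 to 4 (5.37%) and 640 at least 1.5-fold lower (9.67%), from fewer UMIs. Of the 172 genes higher in the embryoid cycling cells, 157 reached 20 CPM in the blastocyst, and 129 of them (82.2%) were above 0 there against cells with a sum of 0 to 4, beside 46.6% of the 5795 genes compared in both libraries. Of the 224 lower genes, 99 reached 20 CPM and 19 of these (19.2%) were above 0. With the wider cell cycle list, 98 of 124 higher genes (79.0%) were above 0. Libraries shared 9 barcodes, 7 of them among the embryoid endoderm-like cells.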

How the data were processed

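Single cells of 1 embryoid and 1 blastocyst library were profiled with the BD Rhapsody whole transcriptome kit. The deposited files hold raw counts of UMIs per gene symbol and cell barcode; per the submitters' processing notes, the tools were STAR 2.7.1a, featureCounts 1.6.4 of Subread, UMI-tools 1.0.1 and bcl2fastq 2.19.1.403, with build mm10. The sources used here do not state the annotation, the strand setting or the barcode calling, so overlapping or antisense genes cannot be told apart. The embryoid file holds 28923930 UMIs and the blastocyst file 11047555.

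Counts were summed over the cells of each group and scaled to CPM. Log2 ratios add 1 CPM to both groups; intervals are exact 95% binomial intervals of the ratio of counts, and shares have Clopper-Pearson intervals. A gene was compared at 20 CPM or more in either group, and 1.5-fold was the line for counting it. Rule genes, mitochondrial genes and cell cycle genes (609 matched) were left out. A count of 0 allows 0.232 CPM in cycling cells and 0.566 CPM in cells with a sum of 0 (3 counts).

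The members, gene lists and tests were chosen with earlier results of these data known. Named genes are the 12 with the highest and the 12 with the lowest ratio (5 CPM added, direction kept in thinned and depth-matched cells), up to 4 per list by level, and the genes that a count refers to; others were named after their values were seen. Alternatives varied the added CPM, filters, scaling, depth, calls and comparison cells. The calculation was tested on simulated data. Tools were scipy 1.17.1, numpy 2.4.6, pandas 2.3.3 and matplotlib 3.10.9 in Python 3.11.15.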

Additional observations from a re-analysis of the deposited data

Results flagged for a closer look

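Asns stood on opposite sides in the 2 libraries, and so did the median of its amino acid stress list over cells with a cycle sum of 0, but not over cells with a sum of 0 to 4. The list's median log2 ratio of cycling cells over cells with a cycle sum of 0 was 0.64 in the embryoid and −0.17 in the blastocyst, and 0.47 and 0.04 over cells with a sum of 0 to 4. Asns itself was at 0.64 in the embryoid (0.51 to 0.77) and at −0.67 in the blastocyst (−0.96 to −0.38) over cells with a sum of 0.

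Ctgf was at −1.49 in the embryoid over cells with a sum of 0. Over cells with a sum of 0 to 4 it was at −1.27 in the embryoid (−1.39 to −1.16) and at 0.73 in the blastocyst (0.13 to 1.39), where it rests on 107 UMIs in cycling cells and 28 UMIs in the comparison cells. These differences between libraries were not tested, since each library is 1 sample.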

How the results depend on the processing

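The main comparison counted 172 higher and 224 lower genes, 43.4% of them higher. A pseudocount of 10 CPM gave 110 and 88 (55.6% higher). No filter on low levels gave 600 and 1065 of 18888 genes, where the main comparison held 6746 genes. Comparison cells with a sum of 0 to 4 gave 110 and 76 (59.1% higher). Comparison cells with under 5 S phase UMIs, 179 cells, gave 549 and 777. Scaling to the median ratio gave 54.9% higher, against 43.4%. Chosen after seeing the data, the subgroups held fewer cells and gave 351 lower genes for Spink3 and Cubn (251 higher), 478 and 629 for Rbp4, Nepn and Tff3, 409 and 436 for Frzb, Sfrp5 and Fst, 372 and 390 for Ctgf, F3 and Lamb3, and 381 and 426 for Dab1, Pitx1 and Emilin3.

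The cycling share was 60.9% with at least 5000 UMIs per barcode, 51.6% in thinned cells, 33.5% with a call at 10 UMIs and 45.0% without cells above the 95th percentile of UMIs, against 46.9%. The amino acid list kept a median between 0.46 and 0.92 across the alternatives other than the subgroups, basement membrane between −0.51 and −0.19, and Psat1 a log2 ratio between 1.03 and 2.12. No list past 1.5-fold, and none of the genes past it that were recomputed, reversed its direction outside the subgroups. Within them Atf5 came to −0.058 and Snai1 to 0.39 (Spink3 and Cubn), Nepn to 1.13 and Fstl1 to 0.068 (Frzb, Sfrp5 and Fst), and Apob to 0.65 (Ctgf, F3 and Lamb3), and the cause was not tested. Genes at low levels rest on few UMIs in the shallower comparison cells. No paired analysis was possible because there is 1 library per group.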

Other observations

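Several lists lay near even between cycling cells and cells with a sum of 0. None of 17 compared hypoxia genes passed 1.5-fold, with a median log2 ratio of −0.09 (0.11 with depth matched), and Vegfa, the angiogenic growth factor, had 360.2 CPM in cycling cells against 354 CPM. None of 17 unfolded protein response genes passed it either (median −0.17), and the chaperone Hspa5 had 1285 CPM against 1625 CPM. Tmsb4x, which binds actin monomers, was the only one of 28 actin and adhesion genes past 1.5-fold, with 775 CPM against 1214 CPM. With depth matched, 1 of the 28 was at least 1.5-fold higher and 1 lower. Over all genes, 2.55% were at least 1.5-fold higher and 3.32% lower, so the counts for these 3 lists lie near those shares.

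All 9 compared FGF and ERK targets were above 0 (median 0.20) without 1 past 1.5-fold, beside 43.5% of all genes above 0, and 4 of the 9 were above 0 with depth matched (median −0.01). Etv4, one of the 9, had 22.2 CPM in cycling cells against 16.6 CPM. With depth matched, Etv4 came to −0.10. Of 6 interferon and MHC class I genes none passed 1.5-fold, and B2m, the light chain of MHC class I, had 512 CPM against 692 CPM (−0.43; −0.49 to −0.38). With depth matched, 1 of the 6 was at least 1.5-fold lower.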
